A study of Mus musculus with 2 samples.

Results

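The genes described here encode the elastic fibre and its microfibril scaffold: Eln, Fbn1, Fbn2, Mfap2, Mfap4, Mfap5, Fbln1, Fbln2, Fbln5 and Emilin1. They were taken by name, 10 of the 22652 genes with a row in either library, and were followed through stromal, mural, arterial, tendon and cartilage cells. The data are single-cell RNA counts of femoral bone marrow cells from C57BL/6 mouse embryos at E18.5, enriched for stroma, endothelium and haematopoietic progenitors by depletion of lineage-positive cells. There were 2 libraries, one from wild-type (WT) embryos and one from Bmx-CreER Wls embryos, in which, per the study's methods, tamoxifen given to the pregnant dam activates a Cre that is driven by the arterial endothelial promoter of Bmx and removes the floxed Wls gene. Wls encodes Wntless, the carrier needed to secrete Wnt ligands. Whether the WT embryos were littermates or had received tamoxifen, and how many embryos each library pooled, is not given in the sources used here. With 1 library per genotype there were no biological replicates, so every interval below is a 95% interval that covers counting error only, no test between genotypes was made, and genotype cannot be told apart from any other difference between the libraries.

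Elastic fibres give arteries, tendons, skin and lung their recoil. Cells first lay down microfibrils, beaded filaments of fibrillin decorated with microfibril-associated glycoproteins, and tropoelastin, the product of Eln, is deposited on them and cross-linked by lysyl oxidases. Fibulins and Emilin1 join elastin to the microfibrils and to the cell surface, while fibrillin microfibrils on their own also anchor tissues and hold latent TGF-beta and BMP ligands. In large arteries, smooth muscle cells and the endothelium both make elastic fibre proteins.

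Promoter windows from RefSeq, matched by symbol, were used for 6 of the 10 members. No window was searched for Eln, Fbn2, Mfap4 and Mfap5. The 250 bases before a start site are shown for Fbn1, Fbln2 and Fbln5, because arterial-like cells ranked first or second among the 5 classes for each of them (build GRCm38.p6, written 5′ to 3′ on the strand of the gene, which is minus for Fbn1 and Fbln5 and plus for Fbln2). Capitals mark GGGCGG, the core of the GC box that Sp-family factors bind, read on either strand, so that CCGCCC is the same motif on the other strand.

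Fbn1 chr2:125506439-125506688: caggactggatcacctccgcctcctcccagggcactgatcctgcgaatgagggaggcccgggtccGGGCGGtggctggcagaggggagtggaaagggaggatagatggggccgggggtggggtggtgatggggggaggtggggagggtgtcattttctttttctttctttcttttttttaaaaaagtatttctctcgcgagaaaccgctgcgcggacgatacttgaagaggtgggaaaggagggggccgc
Fbln2 chr6:91212514-91212763: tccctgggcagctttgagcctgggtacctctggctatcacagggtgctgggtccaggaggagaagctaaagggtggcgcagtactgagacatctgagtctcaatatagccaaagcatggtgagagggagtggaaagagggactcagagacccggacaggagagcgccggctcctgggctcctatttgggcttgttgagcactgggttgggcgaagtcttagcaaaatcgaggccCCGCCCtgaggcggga
Fbln5 chr12:101819120-101819369: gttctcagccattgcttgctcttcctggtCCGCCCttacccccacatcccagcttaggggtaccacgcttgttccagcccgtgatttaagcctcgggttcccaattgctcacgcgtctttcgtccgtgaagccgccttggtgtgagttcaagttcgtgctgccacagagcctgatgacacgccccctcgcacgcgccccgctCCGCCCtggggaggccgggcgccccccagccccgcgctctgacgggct

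The Fbn1 and Fbln2 windows held 1 match each and the Fbln5 window held 2, none of them overlapping another. A GGGCGG match was present in 32.7% of 32851 promoter windows of this length, so such a match is common. The TATA box letters TATAAA were found in 12.4% of windows and the AP-1 letters TGANTCA in 6.75%. Neither was in a window of the 6 members searched. The TEAD letters CATTCC, found in 12.6%, were in 1 window of Mfap2. All motifs were searched on both strands, and the absence of these letters says nothing of the factor. The printed Fbn1 and Fbln2 windows start from RefSeq start sites that lie within the GENCODE gene span.

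The WT library held 22708005 UMIs (unique molecular identifiers, each standing for 1 captured RNA molecule) over 5998 cell barcodes, and the Bmx-CreER Wls library 24704991 over 6825. Filters on genes per cell and mitochondrial share left 5736 and 6620 cells with medians of 3128 and 3067 UMIs. The libraries shared 49 barcodes. Cells were clustered again from the counts with the 10 members and a list of partner genes left out of the variable genes, so the classes did not rest on them, and clusters were named from marker lists with "-like". WT and Bmx-CreER Wls contributed 1238 and 700 stromal-like cells, 121 and 118 mural-like cells, 80 and 74 arterial-like cells, 103 and 162 tendon-like cells, and 2425 and 3967 chondrocyte-like cells. Arterial markers summed to 5804 CPM in WT and 5802 CPM in Bmx-CreER Wls arterial-like cells and to at most 296 CPM in the other 4 classes, where CPM is UMIs per 1000000 UMIs of the class. Tendon markers summed to 5236 and 6876 CPM in tendon-like cells and to 2558 and 4443 CPM in chondrocyte-like cells. Scx was found in 15.5% and 39.5% of tendon-like cells and Tnmd in 53.4% and 51.2%. Stromal markers summed to 144014 and 130696 CPM in tendon-like cells, above the 107329 and 95655 CPM of stromal-like cells. Haematopoietic markers, a list that includes Cd34, summed to 1590 and 1435 CPM in the arterial-like cells, with Spi1 and Mpo at 0 in both. Ptprc had 0 UMIs there in WT and 1 in Bmx-CreER Wls. The score that a cluster needed for a name was set after seeing the data and left 2 clusters unnamed, one led by Hbegf and Clic5 (4.5% of WT and 4.24% of Bmx-CreER Wls cells) and one led by Bpifb1 and Stc1 (2.68% and 5.24%). Wls itself was counted 11 times in WT arterial-like cells and 2 times in those of Bmx-CreER Wls, 41.9 against 6.68 CPM. The ratio of 0.16 (0.02 to 0.73) rests on 13 UMIs in all, under the minimum used below for calling a ratio. In the other 4 classes the Wls ratio lay between 0.75 and 0.97, with stromal-like cells at 0.75 (0.68 to 0.83). In endothelial-like cells outside the arterial class it was 0.62 (0.40 to 0.97), from 60 and 33 UMIs. The lower Wls level was thus not confined to arterial-like cells. The reads are 3′ tags and may lie outside the deleted part of Wls, which the sources used here do not place.

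Of the 5 classes, arterial-like cells had the highest level of Eln, Fbln2 and Fbln5 in both libraries. Eln (chr5:134702593-134747323, GRCm38, minus strand), the gene of tropoelastin, was at 118 CPM (80.3 to 168) in WT arterial-like cells and at 157 CPM (115 to 209) in those of Bmx-CreER Wls. The next WT class was stromal-like, at 26.1 CPM (21.6 to 31.2), and the next Bmx-CreER Wls class was mural-like, at 35.9 CPM (20.5 to 58.3). In neither library did the arterial interval overlap that of another of the 5 classes. Stromal-like, mural-like and tendon-like cells of WT were not separable by their Eln intervals, and chondrocyte-like cells were lowest, at 2.33 CPM in WT and 0.93 CPM in Bmx-CreER Wls. The arterial Eln level rests on 31 and 47 UMIs, found in 21.2% and 24.3% of cells, against 0.14% and 0.22% of haematopoietic-like cells, which had deeper medians (7040 and 6932 UMIs against 2812 and 3543.5). After each cell was thinned to 1000 UMIs the arterial shares were 9.21% and 12.3%.

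Fbln2 (chr6:91212455-91272540, plus strand), a fibulin of vessel basement membranes and elastic laminae, reached 3298 CPM (3082 to 3526) in WT arterial-like cells and 4206 CPM (3977 to 4445) in those of Bmx-CreER Wls. Its second class was stromal-like, at 652 CPM and 742 CPM. A Fbln2 UMI was present in 86.2% of WT and 91.9% of Bmx-CreER Wls arterial-like cells (76.3% and 75.3% at 1000 UMIs per cell), against 1.96% and 1.95% of haematopoietic-like cells. Fbln2 was thus read in nearly every arterial-like cell. Its level there was separated from that of every other of the 5 classes by non-overlapping intervals. An endothelial subcluster outside these classes, led by Fndc1 and Vwf and described below, had Fbln2 as high or higher.

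Fbln5 (chr12:101746565-101819055, minus strand) encodes the fibulin that tethers tropoelastin to microfibrils and to integrins. Its arterial-like level was 1602 CPM (1452 to 1762) in WT and 2207 CPM (2042 to 2381) in Bmx-CreER Wls. Tendon-like cells came next at 227 CPM and 221 CPM, then stromal-like cells at 120 CPM and 101 CPM, chondrocyte-like cells being at 11.9 CPM and 13.9 CPM. The mural-like level, 14.9 CPM in WT and 6.74 CPM in Bmx-CreER Wls, rests on 6 and 3 UMIs. Fbln5 therefore stood much higher in arterial-like than in mural-like cells, and which vessels the mural-like cells came from was not measured.

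Fbn1 (chr2:125300594-125507993, minus strand), the main fibrillin of mature microfibrils, was at 709 CPM (611 to 819) in WT arterial-like cells and 935 CPM (828 to 1051) in those of Bmx-CreER Wls. These levels were second to stromal-like cells in WT and level with them in Bmx-CreER Wls, where the stromal value of 821 CPM (787 to 856) overlapped the arterial interval. Fbn2, the fibrillin of early development, was read only 2 times in the arterial-like cells of each library, 7.63 CPM and 6.68 CPM. Mfap2, a microfibril glycoprotein, was at 111 CPM and 147 CPM there. The other members had few UMIs in arterial-like cells. Mfap5 had 1 UMI in WT and 3 in Bmx-CreER Wls, Fbln1 had 2 and 6, and Emilin1 had 3 and 16, or 11.4 and 53.4 CPM. Mfap4 had 2 UMIs in WT and 0 in Bmx-CreER Wls, where 3 counts, taken as the limit that a count of 0 allows, would be 10.01 CPM. Chondrocyte markers, whose cells express Emilin1, summed to 297 CPM in WT and 748 CPM in Bmx-CreER Wls arterial-like cells, and their part in the Emilin1 counts was not tested.

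**Figure D1:**
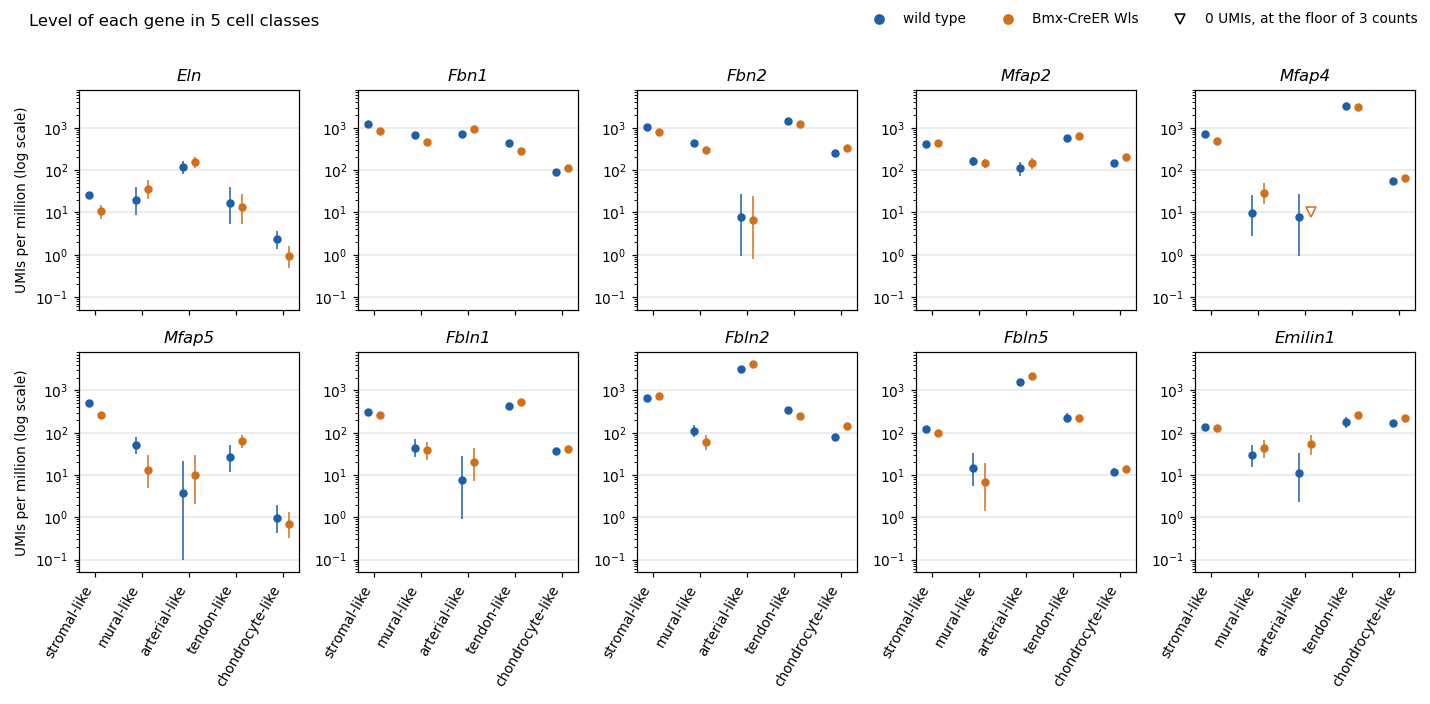
Level of each of the 10 genes (vertical axis, UMIs per 1000000 UMIs of the class, log scale) in 5 cell classes of the WT (blue) and Bmx-CreER Wls (orange) libraries. Bars are exact Poisson 95% intervals and the open triangle is a count of 0 drawn at the level of 3 counts. Eln, Fbln2 and Fbln5 peak in arterial-like cells, where Fbln2 is at 3298 and 4206, and Mfap4 peaks in tendon-like cells at 3303 and 3180.2.

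Elsewhere in the endothelium the same 4 genes were lower, with one exception. Fbln2 was at 1075 CPM in WT and 1115 CPM in Bmx-CreER Wls endothelial-like cells outside the arterial class, and Eln was at 6.37 CPM and 2.17 CPM. A small subcluster led by Fndc1 and Vwf, with 40 WT and 24 Bmx-CreER Wls cells, had Fbln2 at 4225 CPM and 4722 CPM and Fbn1 at 1423 CPM and 1016 CPM. Fbln2 and Fbn1 in that subcluster were as high as in arterial-like cells or higher, whereas its Fbln5, at 804 CPM and 491 CPM, and its Eln, at 44.2 CPM and 33.5 CPM, were lower. The authors' own WT cell labels gave the same picture: in the 47 cells they listed as capillary-2 endothelial cells Fbln2 was at 3323 CPM and Fbn1 at 982 CPM, and in their 56 arterial endothelial cells Fbln2 was at 2640.4 CPM, Fbln5 at 1246 CPM and Eln at 104 CPM.

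The paired genes of the fibrillins and of the Mfap2 and Mfap5 glycoproteins were used in different proportions by each class. Of all fibrillin UMIs, Fbn1 made up 98.9% (96.2 to 99.9) in WT arterial-like cells and 99.3% (97.5 to 99.9) in those of Bmx-CreER Wls. In mural-like cells the share was 60.8% (56.2 to 65.3) and 62.0% (56.6 to 67.2). Stromal-like cells had 54.3% and 51.2%, chondrocyte-like cells 25.8% and 24.7%, and tendon-like cells 23.3% (19.8 to 27.0) and 18.52% (15.9 to 21.4). So Fbn1 was nearly the only fibrillin of the endothelium, with 93.6% and 93.1% in the remaining endothelial-like cells too, and Fbn2 was the more counted fibrillin in tendon and cartilage. The order arterial, mural, stromal, then chondrocyte and tendon was the same in both libraries.

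Mfap5 made up 55.1% (53.6 to 56.6) of Mfap2 plus Mfap5 UMIs in WT stromal-like cells and 38.1% in those of Bmx-CreER Wls. In mural-like cells its share was 24.4% (15.8 to 34.9) and 8.45%, in tendon-like cells 4.49% and 9.02%, and in chondrocyte-like cells 0.68% and 0.35%. Mfap5 was therefore the more counted gene of this pair in WT stromal-like cells, and Mfap2 in each of the other 4 classes of both libraries. Because both genes of a pair are read in the same cells, these shares do not depend on the depth of a class, but they count UMIs and take no account of how well each 3′ end is captured.

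**Figure D2:**
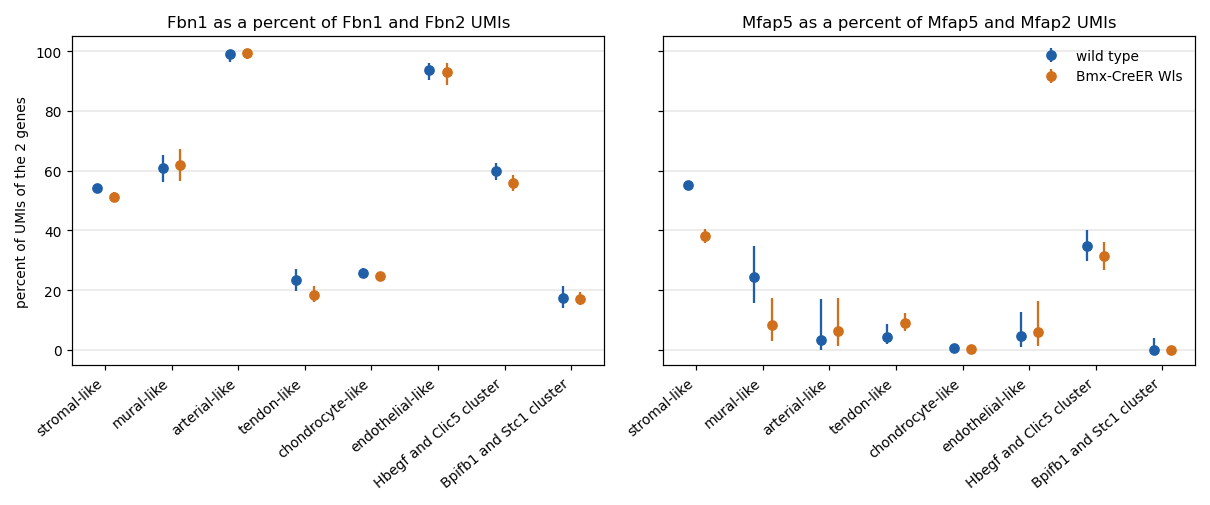
Percent of Fbn1 among Fbn1 and Fbn2 UMIs (left) and of Mfap5 among Mfap5 and Mfap2 UMIs (right) by cell class or cluster, WT in blue and Bmx-CreER Wls in orange, with Clopper-Pearson 95% intervals. Fbn1 runs from 98.9% and 99.3% in arterial-like cells to 23.3% and 18.52% in tendon-like cells.

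Among the 5 classes, tendon-like cells, marked by Tnmd, Kera and Scx, had the highest level of Mfap4, Fbn2, Mfap2, Fbln1 and Emilin1 in both libraries. Mfap4 (chr11:61485431-61488900, plus strand), a fibrinogen-related protein that binds elastin and fibrillin, was at 3303 CPM (3100 to 3515) in WT and 3180.2 CPM (3031 to 3335) in Bmx-CreER Wls tendon-like cells. Stromal-like cells followed at 708 CPM and 483 CPM, chondrocyte-like cells were at 56.5 CPM and 63.7 CPM, and mural-like cells had 4 and 13 UMIs, all 13 of the latter in 1 cell. Mfap4 was found in 84.5% and 85.2% of tendon-like cells (69.9% and 72.5% at 1000 UMIs per cell) and in 1.26% and 0.87% of haematopoietic-like cells.

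Fbn2 in tendon-like cells was at 1429 CPM (1297 to 1571) in WT and 1237 CPM (1144 to 1335) in Bmx-CreER Wls, above the stromal-like levels of 1042 CPM and 782 CPM. Mfap2 (chr4:141010418-141015984, plus strand), which binds fibrillin and growth factors, was at 568 CPM (486 to 660) and 643 CPM (577 to 715) in tendon-like cells and at 406 CPM and 434 CPM in stromal-like cells. Fbln1 (chr15:85205949-85286535, plus strand), a fibulin of basement membranes and fibrillar matrix, was at 431 CPM (360 to 512) and 530.3 CPM (470 to 596) in tendon-like cells and at 308 CPM and 265 CPM in stromal-like cells. All 3 genes were thus higher in tendon-like cells than in stromal-like cells taken as a whole, by intervals that did not overlap in either library. The stromal-like subcluster led by Col8a1 and Npnt, described below, had more Fbn2 and Mfap2 than tendon-like cells. Emilin1 (chr5:30913402-30921277, plus strand), which sits between elastin and microfibrils and restrains TGF-beta processing, was at 177 CPM (133 to 232) and 266 CPM (224 to 314) in tendon-like cells, and these intervals overlapped those of chondrocyte-like cells at 172 CPM (163 to 181) and 221 CPM (213 to 229). Eln was not part of the tendon profile, with 5 UMIs in WT and 7 in Bmx-CreER Wls. Of the WT tendon-like cells the authors listed 81 as eBMSC-1 and 16 as mitotic BMSCs. The tendon-like levels depended on where the clustering drew the class. At resolution 1.0 it held 385 WT cells, and 10 of its 18 levels of at least 20 CPM stayed within 1.5-fold of those above, and with each library clustered alone it held 736 Bmx-CreER Wls cells and 11 of 18 did.

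Stromal-like cells had the highest Mfap5 of the 5 classes in both libraries and the highest Fbn1 of these classes in WT. Mfap5 (chr6:122505845-122529290, plus strand), which binds fibrillin and also Notch ligands, was at 498 CPM (478 to 519) in WT and 267 CPM (248 to 288) in Bmx-CreER Wls stromal-like cells. Fbn1 was at 1237 CPM (1205 to 1270.2) and 821 CPM (787 to 856). For Mfap5 the next class in WT was mural-like at 52.0 CPM, and chondrocyte-like cells had 8 and 9 UMIs in all.

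The stromal-like class was far from uniform in these genes. Its 8 subclusters, which were also built without the members, spanned Fbn1 levels from 18.4 CPM in WT and 17.8 CPM in Bmx-CreER Wls, in cells led by the osteoblast gene Ibsp, to 3074 CPM (2955 to 3195) and 3586 CPM (3302 to 3888), in cells led by Pi16, a marker of adventitial and other universal fibroblasts. The Pi16 cells also had the most Mfap5, 1614 CPM (1529 to 1703) in WT and 1992 CPM (1781 to 2219.9) in Bmx-CreER Wls, and Mfap5 was 79.6% and 89.3% of their Mfap2 plus Mfap5 UMIs. Fbn1 and Mfap5 were thus highest in the same stromal cells in both libraries. In the Ibsp cells Eln was at 0 in both libraries, and Emilin1, at 132 CPM and 125 CPM, was the only member near its class level.

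A different stromal subcluster, led by Col8a1 and Npnt, had the highest Eln and Mfap4 levels among the stromal-like subclusters. Eln was at 204 CPM (147 to 277) in its 63 WT cells and 103 CPM (56.2 to 173) in its 44 Bmx-CreER Wls cells, and these few cells held 34.7% and 50% of the Eln UMIs of all stromal-like cells. The WT Eln level in them overlapped that of arterial-like cells. Mfap4 was at 2412 CPM and 2776 CPM, Fbn2 at 1764 CPM and 2042 CPM, Mfap2 at 797 CPM and 1219 CPM, Fbln2 at 1570 CPM and 1902 CPM, and Fbln5 at 553 CPM and 903 CPM. The Fbn2 and Mfap2 levels were above those of tendon-like cells, at 1429 CPM and 1237 CPM for Fbn2 and 568 CPM and 643 CPM for Mfap2. Mfap5, at 64.8 CPM and 36.7 CPM, and Fbn1, at 324 CPM and 668 CPM, were well below their levels in the Pi16 cells.

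The remaining subclusters lay between these. Cells led by Fst had Fbn1 at 1411 CPM and 1264 CPM and Mfap5 at 523 CPM and 427 CPM. Cells led by Apoe had Fbn1 at 693 CPM and 538 CPM and Mfap5 at 149 CPM and 107 CPM, with Fbln2 at 1116 CPM and 1408 CPM. Cells led by Mmp9 and Mmp13, whose leading genes include an osteoclast marker, had Mfap5 and Eln at 0 and Fbln2 at 12.05 CPM and 43.9 CPM. Of their 177 WT cells the authors listed 170 as OLCs-1, an osteolineage population. Among the authors' WT labels, the 940 cells listed as eBMSC-1 had Fbn1 at 1598 CPM, Mfap4 at 1133 CPM and Mfap5 at 666 CPM, while their OLCs-2 cells had Fbn1 at 18.1 CPM.

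**Figure D3:**
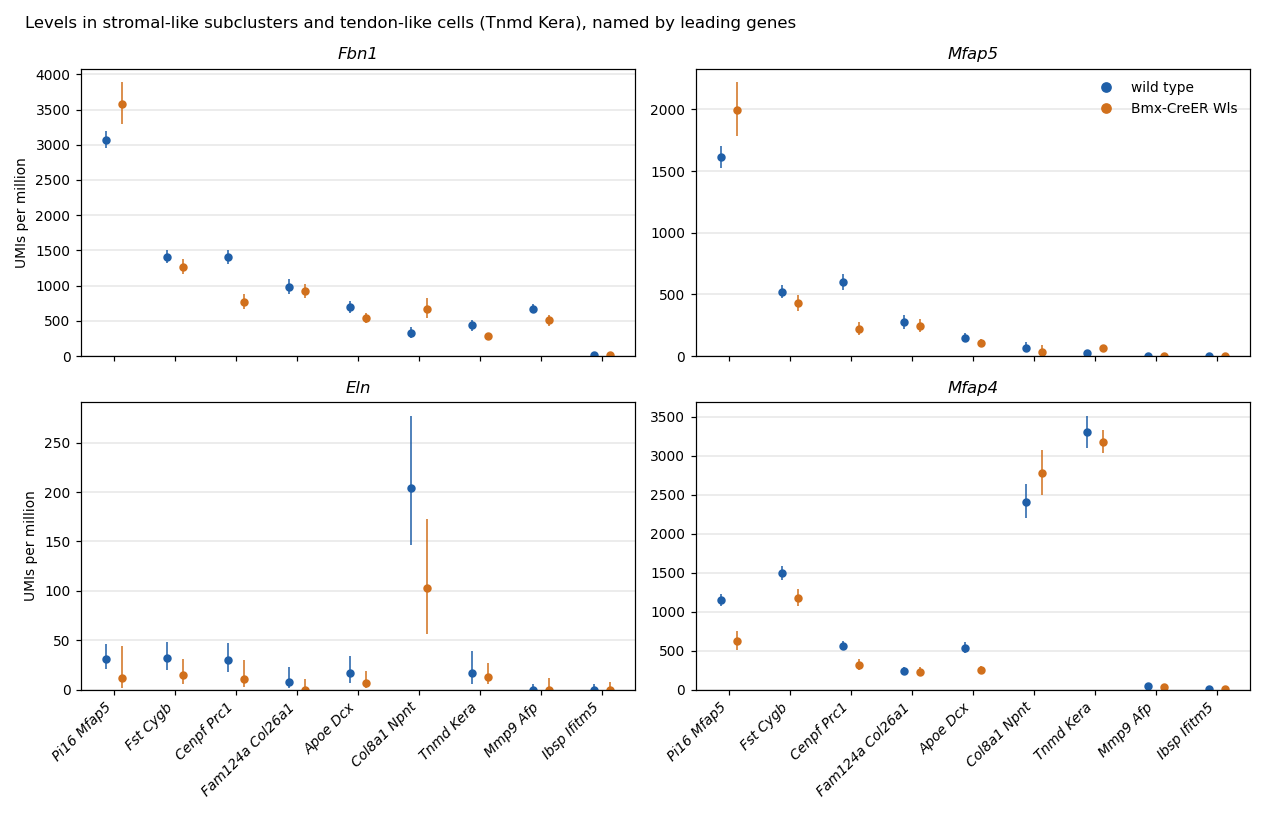
Levels of Fbn1, Mfap5, Eln and Mfap4 (UMIs per 1000000 UMIs of the subcluster, linear scale) in the 8 stromal-like subclusters and in tendon-like cells, each named by 2 leading genes, WT in blue and Bmx-CreER Wls in orange, with exact Poisson 95% intervals. Fbn1 and Mfap5 are highest in the Pi16 cells (Fbn1 3074 and 3586), Eln in the Col8a1 and Npnt cells (204 and 103), and Mfap4 in tendon-like cells.

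Mural-like cells, pericytes and smooth muscle cells by their markers, had no member at its highest level in either library. Fbn1 was at 696 CPM (617 to 783) in WT and 476 CPM (414 to 544) in Bmx-CreER Wls, and Fbn2 at 449 CPM (386 to 519) and 292 CPM (244 to 347). Both fibrillins were thus expressed in the mural cells. Mfap2 was at 161 CPM and 146 CPM. Eln, although a classical smooth muscle product, was at 19.8 CPM (8.56 to 39.1) and 35.9 CPM (20.5 to 58.3), below the arterial-like level in both libraries. Mural-like Fbln2, at 112 CPM and 60.6 CPM, came largely from single cells, 1 WT cell holding 21 of 45 UMIs and 1 Bmx-CreER Wls cell holding 11 of 27. Chondrocyte markers summed to 4105 CPM in WT and 1893 CPM in Bmx-CreER Wls mural-like cells, and their part in the mural levels was not tested. In the 45 WT cells that the authors listed as mural, Fbn1 was at 706 CPM and Fbn2 at 418 CPM, while Eln at 27.4 CPM was 4 UMIs in 1 cell and Fbln2 at 6.85 CPM was 1 UMI.

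Chondrocyte-like cells, the largest class, had low levels of most members, and the exceptions were Fbn2, Mfap2 and Emilin1. Fbn2 was at 259 CPM (248 to 270.0) in WT and 343 CPM (333 to 353) in Bmx-CreER Wls, Mfap2 at 144 CPM and 200 CPM, and Emilin1 at 172 CPM and 221 CPM. Emilin1 was the only member whose chondrocyte-like level was above its stromal-like level of 139 CPM (129 to 151) and 133 CPM (120 to 148) in both libraries. The shares of chondrocyte-like cells with an Emilin1 UMI were 39.4% and 46.6% (17.6% and 20.3% at 1000 UMIs per cell), against 15.1% and 17.8% of haematopoietic-like cells (3.28% and 2.86%), where Emilin1 was at 23.6 CPM and 32.5 CPM.

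Among the 10 subclusters of chondrocyte-like cells Fbn2 covered the widest range of levels. It ran from 975 CPM in WT and 618 CPM in Bmx-CreER Wls in cells led by Aspn to 19.3 CPM and 29.5 CPM in cells led by Col10a1, the collagen of hypertrophic cartilage, and 13.2 CPM and 27.1 CPM in cells led by H2-DMa. Mfap2 followed with 298 CPM and 294 CPM in the Aspn cells and 25.3 CPM and 60.3 CPM in the Col10a1 cells. Fbn2 and Mfap2 were hence low together in the hypertrophic cells. Emilin1 varied less, with 285 CPM and 249 CPM in the Aspn cells, 116 CPM and 168 CPM in the Col10a1 cells and 78.5 CPM and 79.3 CPM in the H2-DMa cells. The unnamed cluster led by Bpifb1 and Stc1, of which the authors listed 51 WT cells as chondrocytes, had Fbn2 at 785 CPM and 760.1 CPM and Fbln2 at 608 CPM and 681 CPM. Its Eln, 61.2 CPM and 51.9 CPM from 27 and 64 UMIs, had intervals of 40.4 to 89.1 in WT, which overlaps that of arterial-like cells, and 39.98 to 66.3 in Bmx-CreER Wls, which overlaps that of mural-like cells.

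**Figure D4:**
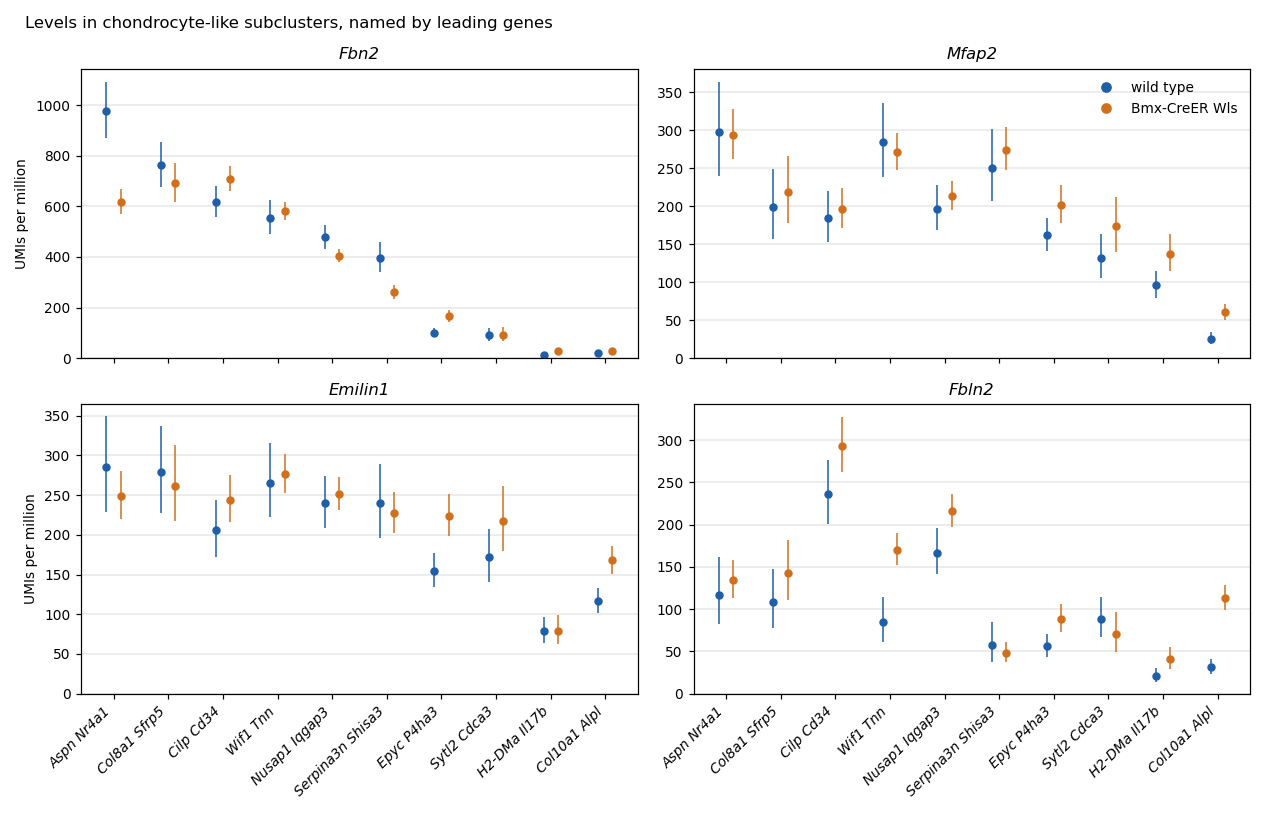
Levels of Fbn2, Mfap2, Emilin1 and Fbln2 (UMIs per 1000000 UMIs of the subcluster, linear scale) in the 10 chondrocyte-like subclusters, each named by 2 leading genes and ordered by WT Fbn2 apart from the last pair, WT in blue and Bmx-CreER Wls in orange, with exact Poisson 95% intervals. WT Fbn2 runs from 975 in the Aspn cells to 19.3 in the Col10a1 cells and 13.2 in the H2-DMa cells, and Fbln2 in the Col10a1 cells is 31.4 in WT and 113 in Bmx-CreER Wls.

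Levels in Bmx-CreER Wls were next set against those in WT as a ratio within each class, counting a gene as past the fold at 1.5-fold or more in either direction with at least 20 UMIs over both libraries. The question is whether loss of Wnt secretion from arterial endothelium goes with other levels of these genes in any class, and with 1 library each the ratios compare these libraries. In stromal-like cells 3 of 10 members were past the fold, all lower in Bmx-CreER Wls, beside 5.43% of 11410 genes that were as much lower and 8.05% that were as much higher (13.5% past the fold in either direction). Eln had a ratio of 0.41 (0.26 to 0.62), from 118 and 28 UMIs. Mfap5 had a ratio of 0.54 (0.49 to 0.58) and Fbn1 one of 0.66 (0.63 to 0.70). The remaining 7 members had ratios from 0.68 for Mfap4 to 1.14 for Fbln2, while the median over all genes was 1.02.

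The Fbn1 and Mfap5 ratios moved with the make-up of the stromal-like class. The Pi16 subcluster was 16.6% (14.5 to 18.7) of stromal-like cells in WT, 205 cells, and 4.86% (3.39 to 6.72) in Bmx-CreER Wls, 34 cells, and it held 45.6% and 27.1% of the Fbn1 UMIs and 59.4% and 46.2% of the Mfap5 UMIs of the class. The largest subclusters were the Fst cells (216) and the Pi16 cells in WT, and the Apoe cells (180) and the Fam124a cells (115) in Bmx-CreER Wls. When each subcluster was given its WT share of the class UMIs in both libraries, an alternative chosen after seeing the data, the ratio was 0.97 for Fbn1 and 0.99 for Mfap5, so neither was past the fold. These values average unequal ratios. In the mitotic cells led by Cenpf the ratio was 0.55 (0.47 to 0.64) for Fbn1 and 0.36 (0.27 to 0.48) for Mfap5, in the Pi16 cells it was 1.17 (1.06 to 1.28) and 1.23 (1.09 to 1.39), and in the Col8a1 and Npnt cells Fbn1 was at 2.06 (1.48 to 2.88). Eln was at 0.42 with the mix held. Of the 4 subclusters with at least 20 Eln UMIs, the Col8a1 and Npnt cells had a ratio of 0.50 (0.25 to 0.94) from 41 and 14 UMIs and the Fst cells one of 0.45 (0.15 to 1.13) from 23 and 6. The Pi16 cells were at 0.39 (0.04 to 1.56) from 26 and 2 UMIs and the Cenpf cells at 0.34 (0.06 to 1.18) from 18 and 3, so that 3 of the 4 intervals include 1. Mfap4, at 0.68 in the class, was at 0.73 with the mix held and at 0.66, past the fold, once the Mmp9 subcluster was left out. Without the Pi16 cells Fbn1 was at 0.77, within the fold, and Mfap5 at 0.62, still past it.

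No member was past the fold in arterial-like cells, the class that the Cre targets, where 5 members had enough UMIs and 22.6% of 4727 genes were past the fold, 11.6% higher and 11% lower. The 5 ratios were all above 1. They were 1.38 (1.22 to 1.56) for Fbln5, 1.33 (0.83 to 2.16) for Eln, 1.33 (0.81 to 2.20) for Mfap2, 1.32 (1.09 to 1.6) for Fbn1 and 1.28 (1.17 to 1.39) for Fbln2, beside a median of 1.0 over all genes. For comparison Bmx itself, whose promoter drives the Cre, was at 111 CPM in WT and 217 CPM in Bmx-CreER Wls arterial-like cells, a ratio of 1.96 (1.25 to 3.15). Emilin1, with 19 UMIs in all, was under the minimum of 20 and had a ratio of 4.67 (1.34 to 25.01). With the numbers of arterial-like cells at hand, a ratio of 1.5 lay within the interval of every one of these 5 members but Fbln2.

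**Figure D5:**
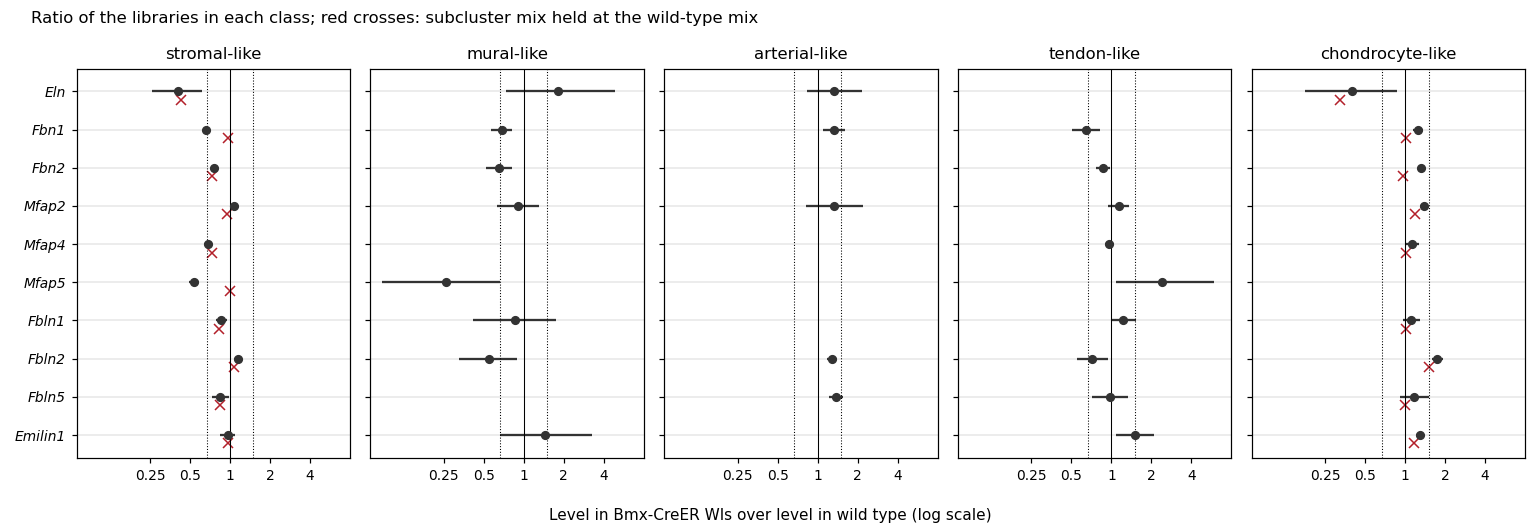
Ratio of the Bmx-CreER Wls level to the WT level (horizontal axis, log scale) for members with at least 20 UMIs over both libraries in each of 5 classes, with conditional binomial 95% intervals. Dotted lines are 1.5-fold, and red crosses are ratios with the subcluster mix held at the WT mix. In stromal-like cells Fbn1 and Mfap5 go from 0.66 and 0.54 to 0.97 and 0.99 with the mix held, and Eln stays at 0.42.

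In mural-like cells 4 of the 8 members with enough UMIs were past the fold, beside 24.3% of 6469 genes (11.8% higher and 12.5% lower). Eln was higher at 1.81 (0.73 to 4.89) from 8 and 16 UMIs. Fbn2 at 0.65 (0.51 to 0.82), Fbln2 at 0.54 (0.32 to 0.89) and Mfap5 at 0.26 (0.09 to 0.66) were lower. Of these 4 ratios only that of Fbn2 rests on more than 100 UMIs, and it was 0.65 also when the richest cell of each library was left out, a check added after the data were seen. It was within the fold at 0.75 with each library clustered alone and at 0.78 with a mean over cells. Mural markers differed between the libraries as well, Acta2 at 3103 CPM in WT and 5449 CPM in Bmx-CreER Wls, Tagln at 1348 CPM and 2892 CPM and Rgs5 at 7232 CPM and 4953 CPM, and their part in the ratios was not tested. In tendon-like cells 3 of 9 members were past the fold, beside 25.9% of 5803 genes (16% higher and 9.86% lower). Mfap5 was higher at 2.39 (1.08 to 5.96), but 24 of its 34 UMIs in Bmx-CreER Wls came from 1 cell, and without the richest cell of each library its ratio was 0.94 (0.31 to 3.13). Emilin1 was higher at 1.5 (1.09 to 2.10) and Fbn1 lower at 0.65 (0.51 to 0.82), and neither turned on 1 cell, with ratios of 1.58 and 0.66 without the richest cells. Both did turn on the clustering. Emilin1 was within the fold in most alternatives, at 1.16 with each library clustered alone, 1.21 at resolution 1.0, 1.32 with 30 principal components and 1.42 when centred on the median of all genes. Fbn1 was within it at 0.94 with each library clustered alone, 0.83 with the members kept among the variable genes and 0.78 with 30 principal components. The tendon markers also differed between the libraries, Scx at 70.1 CPM in WT and 200.5 CPM in Bmx-CreER Wls and Tnmd at 1559 CPM and 2432 CPM, and their part in the ratios was not tested.

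Chondrocyte-like cells had 2 of 9 members past the fold, beside 12.2% of 12720 genes (7% higher and 5.17% lower). Fbln2 was higher in Bmx-CreER Wls, at 80.9 CPM in WT and 141 CPM in Bmx-CreER Wls, a ratio of 1.75 (1.6 to 1.91), and stayed at 1.52 with the mix of the 10 subclusters held. Without the Epyc subcluster, which has more leading genes from another list than from its own, the Fbln2 ratio was 1.71. In the Col10a1 cells its level was 31.4 CPM and 113 CPM, a ratio of 3.61 (2.69 to 4.90). Eln was lower at 0.40 (0.18 to 0.87), from 19 and 12 UMIs, and its ratio was 0.98 when the clustering used 30 principal components. The other 7 ratios lay between 1.12 and 1.38 and moved to between 0.97 and 1.19 with the mix held.

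The wider set of genes that build and modify elastic fibres was read from a list of 39 partners, of which 38 had a row in the files and 24 reached 100 CPM in one of the 5 classes. Lox, the lysyl oxidase that cross-links elastin and collagen, was at 942 CPM in stromal-like and 888 CPM in tendon-like cells of WT, and at 673 CPM and 686 CPM in those of Bmx-CreER Wls. Loxl1, its relative that works with Fbln5, was at 236 CPM and 211 CPM in stromal-like cells. It was at 0 in arterial-like cells of both libraries, where Eln and Fbln5 were highest of the 5 classes. Efemp2, the fibulin that brings Lox to tropoelastin, was at 152 CPM and 137 CPM in stromal-like cells and 22.9 CPM and 6.68 CPM in arterial-like cells. Ltbp4, a latent TGF-beta binding protein that also aids elastin assembly, was at 541 CPM and 958 CPM in arterial-like cells. It was among the partners highest there in both libraries, with Mfap3 at 149 CPM and 117 CPM and Mmrn2, an emilin-family protein of the endothelium, at 942 CPM and 1112 CPM and at most 17.4 CPM in the other 4 classes. Fbln7 was a cartilage gene, at 293 CPM and 253 CPM in chondrocyte-like cells.

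Between the libraries, 1 partner was higher and 3 were lower past the fold in stromal-like cells, with 31 within it and 3 with too few UMIs, so 4 of 35 were past the fold beside 13.5% of all genes. Efemp1, a fibulin among the leading genes of the Pi16 subcluster, was lowest, at 38.2 CPM in WT and 6.06 CPM in Bmx-CreER Wls, a ratio of 0.16 (0.09 to 0.26). Bmp4 was at 0.61 and Mfap3l at 0.64, and Fbln7 was higher at 1.74. In arterial-like cells 3 partners were higher and 2 lower, with 9 within the fold and 24 too few to say, so 5 of 14 were past it beside 22.6% of all genes. Lox was at 118 CPM and 260.4 CPM there, a ratio of 2.20 (1.44 to 3.46), Ltbp4 had a ratio of 1.77 (1.44 to 2.18) and Mmp2 one of 1.93 (1.02 to 3.82), while Tgfb2 at 0.48 and Timp3 at 0.37 were lower. Of these 5 partners, Lox, Ltbp4 and Mmp2 were on the same side as the 5 members of that class, and Tgfb2 and Timp3 were on the other. Partners not past the fold there also went both ways, with Hspg2 and Mfap3 lower and Ltbp1, Fn1 and Mmrn2 higher.

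Mural-like cells had 1 partner higher (Mfap3, 1.56) and 4 lower past the fold, among them Fn1 (fibronectin) at 0.54 and Lox at 0.57, with Ltbp3 and Mfap1b, so 5 of 20 were past the fold beside 24.3% of all genes. Tendon-like cells had 2 higher, Ltbp2 and Timp3, and 6 lower, among them Vcan (versican), at 1032 CPM in WT and 592 CPM in Bmx-CreER Wls, a ratio of 0.57, and Ltbp1, Tnxb, Emilin2, Hspg2 and Adamtsl4, so 8 of 28 were past the fold beside 25.9%. Chondrocyte-like cells had 3 higher and 2 lower, 5 of 35 beside 12.2%. Ltbp4 was at 2.07 (1.84 to 2.34), on the same side as Fbln2, with Ltbp2 and Adamtsl2 also higher, Loxl4 at 0.58 and Mfap3l at 0.49.

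For each member the genes with the most similar pattern over 11 classes and clusters were ranked among 11153 genes, taking the lower Pearson r of the 2 libraries on the log2(CPM + 10) scale. These are descriptions over 11 points that share library, depth and clustering. Fbn2 had the closest neighbours, the type VI collagen genes Col6a1 (0.972) and Col6a2 (0.954) and Gas1 (0.961). Mfap2 was nearest to the collagen gene Col5a2 (0.936), followed by Kdelr1 and Calu. Fbn1 was nearest to Ltbp4 (0.867), then Fstl1 and Prkcdbp, and Fbln2 to Ctsl (0.869), then Ptprm and Nrp1. Fbln5 was nearest to Ppap2a (0.884), then Utrn and Nedd9, and Eln, with the loosest neighbours, to Sema7a (0.841), Map4k3 and Clu.

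Mfap4 was nearest to the mesenchymal homeobox gene Prrx2 (0.908), then Tcea3 and Htra3. Mfap5 was nearest to Adam33 (0.912), then Gpr133 and Aldh1a2, Fbln1 to Angptl2 (0.891), then Ssc5d and Olfml2b, and Emilin1 to Ntn3 (0.917), then Zc3hav1l and Echdc2. The members were left out of the ranked genes, so none could be among the 3 nearest of another. Between members, Fbln2 and Fbln5 had r of 0.736 in WT and 0.758 in Bmx-CreER Wls, and Fbn2 and Fbln1 had 0.792 and 0.793. Eln and Fbn2 were unrelated, at 0.003 and -0.068.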

How the data were processed

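Femoral bone marrow cells of E18.5 embryos were captured on the BD Rhapsody platform and sequenced from the 3′ end, 1 library per genotype. The authors deposited counts: whole-number UMI counts per gene and cell barcode, one table per library, with no normalization. Per the submitters' processing notes, the tools were bcl2fastq 2.19.1.403, UMI-tools 1.0.1, STAR 2.7.1a and featureCounts 1.6.4 of Subread, with build mm10. Neither the strand setting nor the treatment of reads that match several genes is given in the sources used here. No columns of the authors' own comparisons were in the tables used, and their supplementary cell table was used only for its WT cell labels.

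Here, the study's limits on cells were applied (over 200 and under 5000 genes, mitochondrial UMIs below 30%). Both libraries were clustered together in 2 rounds (scanpy 1.11.5, Leiden with leidenalg 0.10.2, 11 principal components, 20 neighbours, resolution 0.5), leaving the 10 members, the partner list and cell cycle genes out of the variable genes. A cluster was named from marker lists when its mean log2 fold over the list reached 1.0 with at least 3 markers detected, and subclusters of mixed lineage (123 WT and 117 Bmx-CreER Wls cells) were left out. Scrublet called 38 WT cells (0.662%) and 0 Bmx-CreER Wls cells as doublets, which means that it did not work here, so doublets were kept. UMIs were summed per class and library and given as CPM with exact Poisson intervals. Shares have Clopper-Pearson intervals, and ratios of the libraries have conditional binomial intervals, all at 95% (python 3.11.15, scipy 1.17.1, numpy 2.4.6, pandas 2.3.3, matplotlib 3.10.9). The interval code was tested on simulated data. Ratios were computed for all genes of a class and called past the fold at 1.5-fold with at least 20 UMIs over both libraries. Gene positions are from GENCODE on GRCm38.

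All 10 members are named. Partners are named when they reached 100 CPM in a class or were past the fold, and so are the 3 nearest genes of each member among genes with at least 200 UMIs, together with Wls and Bmx. The members and lists were chosen with earlier results of these data known. The alternatives were other clusterings (members kept among the variable genes, each library alone, 30 principal components, resolution 1.0), the authors' WT labels, a mean over cells, totals that leave out haemoglobin and mitochondrial genes, a stricter cell filter (1000 UMIs, 10% mitochondrial), removal of the top 5% of Scrublet scores, TMM and median scaling, a minimum of 100 UMIs, thinning to 1000 UMIs and Spearman correlation. Those on subclusters (a fixed subcluster mix, no Pi16 cells, no subclusters led by another list) and on single cells (no richest cell of each library) were chosen after seeing the data.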

Additional observations from a re-analysis of the deposited data

Results flagged for a closer look

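For 3 genes the ratio of Bmx-CreER Wls to WT lay past 1.5-fold in one direction in one class and past it in the other direction in another, which with 1 library per genotype could not be tested. Eln was higher in mural-like cells (1.81, from 8 and 16 UMIs) and lower in stromal-like cells (0.41, from 118 and 28 UMIs) and chondrocyte-like cells (0.40, from 19 and 12 UMIs). Mfap5 was higher in tendon-like cells (2.39) and lower in stromal-like (0.54) and mural-like cells (0.26), with 24 of the 34 tendon-like UMIs of Bmx-CreER Wls in 1 cell. Fbln2 was higher in chondrocyte-like cells (1.75) and lower in mural-like cells (0.54), where 1 cell held 21 of 45 WT UMIs and 1 cell held 11 of 27 Bmx-CreER Wls UMIs. The interval for Eln in mural-like cells includes 1, and without the richest cell of each library so do those for Mfap5 in tendon-like cells (0.94, 0.31 to 3.13) and Fbln2 in mural-like cells (0.60, 0.30 to 1.18).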

How the results depend on the processing

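No paired analysis was possible because each genotype had 1 library, and for the same reason no replicate could be left out. The number of members highest in each class was the same with 30 principal components, under the stricter cell filter and without the highest Scrublet scores, and it was 3 in place of 2 for WT stromal-like cells and 4 in place of 5 for WT tendon-like cells when the members were kept among the variable genes. The number of members highest in chondrocyte-like cells was 1 in place of 0 in both libraries at resolution 1.0 and with each library clustered alone, and in WT with a mean over cells, and with each library clustered alone no member (0 in place of 1) was highest in Bmx-CreER Wls stromal-like cells. That last clustering split the libraries differently, leaving 156 stromal-like cells in Bmx-CreER Wls, and put 9 stromal-like members past the fold in place of 3, 1 arterial-like in place of 0 and 1 chondrocyte-like in place of 2. With the subcluster mix held, 1 stromal-like member, Eln, was past the fold. Tendon-like members past the fold numbered 1 in place of 3 with 30 principal components. Chondrocyte-like ones numbered 1 in place of 2 with 30 principal components, with a mean over cells and at a minimum of 100 UMIs, which also left 1 of 4 in mural-like cells. The stricter cell filter put 1 arterial-like member past the fold in place of 0. Of the ratios past the fold, those that turned direction were Mfap5 in tendon-like cells (2.39, but 0.74 with each library clustered alone, 0.60 at resolution 1.0 and 0.94 without the richest cell of each library) and Fbln2 in mural-like cells (0.54, but 1.34 at resolution 1.0 and 2.44 without the highest Scrublet scores). Within the fold, with each library clustered alone, the stromal-like ratios of Fbln2 (1.14) and Mfap2 (1.07) fell to 0.04 and 0.37 and the tendon-like ratio of Fbln2 (0.72) rose to 2.54. Mural-like Fbn1 was past the fold, at 0.64, without the richest cell of each library. Over the alternatives other than clustering each library alone, its ratio ran from 0.61 to 0.71. Another of them therefore also put it past the fold. The stromal-like Fbn1 ratio, 0.66, lay close to the fold and was 0.72 at resolution 1.0, and the chondrocyte-like Fbln2 ratio, 1.75, was 1.47 with a mean over cells and 1.15 with each library clustered alone. The stromal-like Eln ratio stayed between 0.37 and 0.46 under every alternative run other than clustering each library alone, where Bmx-CreER Wls had no Eln UMI. Scaling moved the median of all genes by at most 0.08 on the log2 scale. Apart from the changes that follow from fewer genes or a fixed mix, the cause was not tested. Depth limits Eln outside stromal-like and arterial-like cells, and most members in arterial-like and mural-like cells, to small counts of UMIs.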

Other observations

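The unnamed cluster led by Hbegf and Clic5, with 258 WT and 281 Bmx-CreER Wls cells, had a microfibril profile without elastin. Fbn1 was at 852 CPM in WT and 760 CPM in Bmx-CreER Wls, Fbn2 at 573 CPM and 598 CPM, and Mfap5 at 148 CPM and 125 CPM, while Eln had 1 and 4 UMIs. Of its WT cells, the authors listed 149 as eBMSC-2 and 75 as eBMSC-1. Schwann-like cells, a small class, had Fbln5 at 276 CPM in WT and 231 CPM in Bmx-CreER Wls, from 18 and 14 UMIs, and no Eln UMI in either library. Skeletal muscle-like cells had Mfap4 at 252 CPM and 35.2 CPM, from 15 and 2 UMIs.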
